A study of Mus musculus with 6 samples.

Results

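The set comprised 10 genes that encode vascular growth factors, their receptors and surface proteins of endothelial cells, the cells that line blood vessels. The ligands were Vegfa, Angpt1 and Angpt2, the receptors Flt1, Kdr, Tek and Nrp1, and the endothelial surface genes Pecam1, Cdh5 and Eng. They were taken by gene name from deposited tables of 54551 genes, and all 10 were present once in all 6 tables. RNA came from granulosa cells, which line the follicle around the egg, of C57BL/6 ovaries on postnatal day 21. All mice had been given 5 IU of PMSG (48 h), which makes follicles grow, and then 5 IU of hCG (6 h), which mimics the hormone surge that triggers ovulation. One group was labelled wild type (3 libraries) and the other Gm12840-/- (3 libraries), a knockout of a long noncoding RNA gene. The labels name neither the deleted part of Gm12840 nor the animals behind each library, so a p-value here gauges library-to-library spread, which may be technical.

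VEGFA is the main growth and permeability signal for endothelial cells. It acts through the receptor tyrosine kinase KDR, while FLT1 binds it tightly and, in a soluble form, acts as a decoy, and NRP1 is a co-receptor. Angiopoietins signal through TEK: ANGPT1 is an activating ligand that steadies vessels, and ANGPT2 often opposes it where vessels are being remodelled. In the follicle the granulosa layer has no vessels of its own until ovulation, when the basement membrane breaks and vessels of the theca, the layer outside it, grow inward. Granulosa cells are known to make VEGFA, and Vegfa is a textbook target of the hypoxia-inducible factors (HIF).

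Recovered depth ran from 16392098 to 19465847 reads per library. For Gm12840 itself, wild type 1 to 3 held 1.83, 0.566 and 0.365 FPKM and knockout 1 to 3 held 0.426, 0.611 and 1.45 FPKM, on 5 to 17 reads each. FPKM is reads per kilobase of gene length scaled to a library total, so it can be compared between genes. The targeted gene was thus not lower in all libraries labelled knockout: wild type 3 lay nearest knockout 1 and knockout 3 nearest wild type 1. Every direction below rests on the labels, and whether the labels of libraries 3 of both groups are exchanged was not tested. An exchange would change the size or sign of any difference between the labels. Libraries also differed within each label. Reads from the mitochondrial chromosome were 0.227%, 0.311% and 2.08% of all reads in wild type 1 to 3, and 1.52%, 4.19% and 0.146% in knockout 1 to 3. Wild type 3, knockout 1 and knockout 2 thus lay over 1%, and wild type 1, wild type 2 and knockout 3 under it. A principal component that held 83.3% of the variance of the tested genes put the same libraries on the same sides, so each library 3 stood with the other label's libraries 1 and 2. Granulosa markers were present in all 6 libraries, among them Foxl2 at 26.2 to 48.5 FPKM and Fshr at 20.6 to 26.5 FPKM. Of 10 such markers 4 were lower over 1% without overlap, where 34.9% of all tested genes were, among them Amh at 181 to 779 FPKM. Genes of other cells were present in all 6 too. The oocyte gene Gdf9 stood at 53.8 to 140 FPKM, the theca gene Cyp17a1 at 13.7 to 49.8 FPKM and the globin gene Hba-a1 at 154 to 2134 FPKM.

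Vegfa was by far the most abundant of the 10 genes, and Angpt1, Flt1 and Tek were the least. Median levels over the 6 libraries were 37.5 FPKM for Vegfa, 4.65 for Angpt2, 4.62 for Eng, 4.0 for Cdh5, 2.17 for Nrp1, 1.497 for Kdr, 1.31 for Pecam1, 0.287 for Tek, 0.223 for Flt1 and 0.0976 for Angpt1. Only 2 steps of this order were larger than the spread over libraries: the lowest Vegfa value lay above the highest Angpt2 value, and the lowest Pecam1 value above the highest Tek value. Neighbours between Angpt2 and Pecam1 had overlapping ranges, and Angpt2 was above Eng in 3 of 6 libraries, Eng above Cdh5 in 3 of 6 and Cdh5 above Nrp1 in 3 of 6. Flt1 was above Angpt1 in 6 of 6 libraries although their ranges overlapped. The median of all 12495 genes tested was 6.19 FPKM, so Vegfa alone of the set had a median above it. In tissue-level RNA of this kind, fewer cells of a type and less RNA per cell cannot be told apart.

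**Figure D1:**
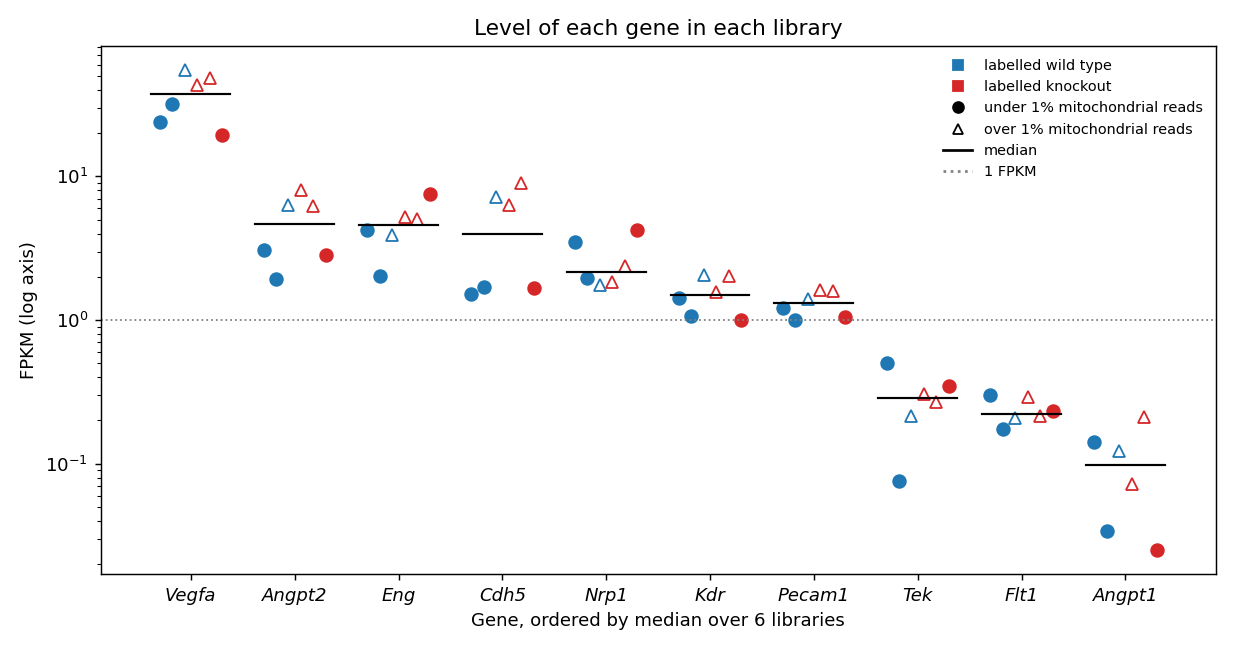
Level of the 10 genes in FPKM on a log axis, 1 point per library, with colour for the label and open triangles for the 3 libraries over 1% mitochondrial reads. Black lines are medians over 6 libraries, from 37.5 FPKM for Vegfa to 0.0976 FPKM for Angpt1, and Tek, Flt1 and Angpt1 lie below the dotted line at 1 FPKM in every library.

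Promoter sequence helps to place 3 genes that the results turn on: Vegfa, the dominant ligand; Kdr, its signalling receptor; and Eng, the gene whose labelled groups did not overlap. The RefSeq table (GRCm38.p6, the mm10 assembly) held start sites for 6 of the 10 genes, and the 250 bases before the first listed start site are given 5′ to 3′. Vegfa lies at chr17:46032378-46032627 on the minus strand, Kdr at chr5:75978456-75978705 on the minus strand and Eng at chr2:32646345-32646594 on the plus strand. Capitals mark matches on either strand to 4 motifs: the GC box (GGGCGG), 1 form of the ETS site (AGGAAG), 1 form of the hypoxia response core (ACGTG) and the TATA box (TATAAA). Only these exact letters were searched, so other forms of a motif were not counted.
Vegfa: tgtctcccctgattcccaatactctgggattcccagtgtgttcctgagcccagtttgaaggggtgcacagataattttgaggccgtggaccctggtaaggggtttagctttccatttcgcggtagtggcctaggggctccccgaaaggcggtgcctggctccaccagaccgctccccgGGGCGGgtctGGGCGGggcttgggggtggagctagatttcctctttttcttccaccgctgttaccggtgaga
Kdr: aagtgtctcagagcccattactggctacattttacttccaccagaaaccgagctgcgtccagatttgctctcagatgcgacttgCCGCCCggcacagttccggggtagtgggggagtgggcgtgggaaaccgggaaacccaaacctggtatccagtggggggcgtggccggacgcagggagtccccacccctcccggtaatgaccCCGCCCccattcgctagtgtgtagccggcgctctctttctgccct
Eng: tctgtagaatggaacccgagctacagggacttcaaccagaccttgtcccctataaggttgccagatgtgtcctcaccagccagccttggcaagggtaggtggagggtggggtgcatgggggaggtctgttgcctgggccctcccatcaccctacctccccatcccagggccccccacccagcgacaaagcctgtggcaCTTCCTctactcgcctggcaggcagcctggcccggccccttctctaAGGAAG
The Vegfa and Kdr windows each held 2 GC boxes, a motif found in 32.7% of 32851 windows of this length. Eng held 2 matches to the ETS form, found in 29.5% of windows, and no GC box. ETS factors are regulators of many endothelial genes, and Flt1 also held 2 matches to the ETS form, beside 3 GC boxes and 1 TATA box. Nrp1 held 1 match to the ETS form, and Vegfa, Kdr and Tek held none. The searched form of the hypoxia response core, in 16.6% of windows, was in none of the 3 printed windows. It was in 1 place of the window before a second listed Vegfa start site. The TATA box, in 12.4% of windows, was in none of the 3. A match describes letters only and shows no binding.

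Among the ligands, Vegfa (ENSMUSG00000023951, chromosome 17, 46016993 to 46032369, minus strand, 4285 nt of exons) had 23.9, 31.8 and 55.1 FPKM in wild type 1 to 3 (here and below, libraries are called by their labels). Its values in knockout 1 to 3 were 43.2, 48.5 and 19.6 FPKM. Knockout 3 was the lowest and wild type 3 the highest, so the groups overlapped over almost their whole range. The labels' means, 36.9 ± 16.2 for wild type and 37.1 ± 15.4 FPKM for knockout (SD, n = 3 each), gave a log2 fold change of -0.01 on the log2(FPKM + 1) scale (SE 0.45, adjusted p = 0.999 by limma). The 95% interval ran from -1.09 to 1.07, so a doubling or a halving was not detectable for Vegfa in this design. Counting error was small here, since 1290 to 5156 reads lay behind each value.

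Angpt2 (ENSMUSG00000031465, chromosome 8, 18690263 to 18741562, minus strand, 3690 nt), which lies within the Mcph1 gene but shares no exon with it, stood at 3.07, 1.94 and 6.31 FPKM in wild type 1 to 3. In knockout 1 to 3 it stood at 7.98, 6.23 and 2.85 FPKM. Wild type 3, knockout 1 and knockout 2 were high and the other 3 libraries low, whatever their label. It averaged 3.77 ± 2.27 FPKM in wild type and 5.69 ± 2.61 FPKM in knockout (SD, n = 3 each), and the log2 fold change of 0.51 (SE 0.44) did not pass limma's test (adjusted p = 0.993).

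Angpt1 (ENSMUSG00000022309, chromosome 15, 42424723 to 42676977, minus strand, 5205 nt) was near the limit of detection, with 11, 3 and 14 reads in wild type 1 to 3 and 7, 20 and 2 reads in knockout 1 to 3. These reads gave 0.142, 0.0341 and 0.123 FPKM against 0.0719, 0.210 and 0.0250 FPKM. Over the pooled reads, 28 against 29, knockout was 1.06 times wild type (exact 95% binomial interval 0.608 to 1.85, for counting error alone). Gm17473, an antisense gene that shares 737 nt of exon with Angpt1, was listed at 0 in all libraries. Angpt2 exceeded Angpt1 in every library, by a ratio of FPKM between 21.5 (wild type 1) and 114 (knockout 3). The ratio was 21.5, 56.9 and 51.2 in wild type 1 to 3 and 111, 29.6 and 114 in knockout 1 to 3, and its size rests on the few Angpt1 reads.

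Of the receptors, Kdr (ENSMUSG00000062960, chromosome 5, 75932827 to 75978458, minus strand, 9030 nt) stood at 1.42, 1.07 and 2.08 FPKM in wild type 1 to 3 and at 1.57, 2.01 and 1.01 FPKM in knockout 1 to 3. Its lowest value was in knockout 3 and its highest in wild type 3, as for Vegfa. Kdr averaged 1.52 ± 0.508 FPKM in wild type and 1.53 ± 0.503 in knockout (SD, n = 3 each), a log2 fold change of 0.0018 (SE 0.25, adjusted p = 0.999 by limma).

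Flt1 (ENSMUSG00000029648, chromosome 5, 147561604 to 147726011, minus strand, 13504 nt) was the flattest of the low genes, at 0.299, 0.175 and 0.207 FPKM in wild type 1 to 3 and 0.289, 0.215 and 0.231 FPKM in knockout 1 to 3. The values rest on 40 to 73 reads, and each table gives 1 value per gene, so the soluble and membrane-bound forms were not separated. Pooled reads gave a knockout to wild-type ratio of 1.11 (0.887 to 1.38, exact 95% interval for counting error). Kdr exceeded Flt1 in every library, by 4.36 to 10.03 times, and Vegfa exceeded the sum of both receptors by 13.9 to 25.4 times.

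Tek (ENSMUSG00000006386, chromosome 4, 94739289 to 94874976, plus strand, 4712 nt), the angiopoietin receptor, stood at 0.5003, 0.0753 and 0.214 FPKM in wild type 1 to 3 on 35, 6 and 22 reads. In knockout 1 to 3 it stood at 0.306, 0.267 and 0.345 FPKM on 27, 23 and 25 reads. Wild type 1 and 2 were its highest and lowest libraries, and the knockout libraries lay between them. Its pooled ratio was 1.22 (0.859 to 1.73).

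Nrp1 (ENSMUSG00000025810, chromosome 8, 128358604 to 128503363, plus strand, 9785 nt) ran differently from Kdr. It stood at 3.47, 1.98 and 1.75 FPKM in wild type 1 to 3. In knockout 1 to 3 it stood at 1.84, 2.37 and 4.21 FPKM. Knockout 3 and wild type 1, where Vegfa was lowest, held the highest Nrp1 values, and on few reads also the highest Tek values. Means were 2.40 ± 0.934 and 2.81 ± 1.24 FPKM (SD, n = 3 each), with a log2 fold change of 0.15 (SE 0.31, adjusted p = 0.993 by limma). The ratio of Nrp1 to Kdr was 0.844 to 1.18 in the libraries over 1% mitochondrial reads and 1.84 to 4.18 in those under 1%. Mir1903, which shares 80 nt with the Nrp1 exons, was listed at 0 throughout.

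Eng was the 1 gene of the set whose groups did not overlap. Eng (ENSMUSG00000026814, chromosome 2, 32646595 to 32682669, plus strand, 4048 nt), a co-receptor for TGF-beta and BMP ligands, stood at 4.21, 2.03 and 3.88 FPKM in wild type 1 to 3 and 5.18, 5.03 and 7.54 FPKM in knockout 1 to 3. The lowest knockout value, 5.03 FPKM, lay above the highest wild-type value, 4.21 FPKM. Means were 3.37 ± 1.17 and 5.92 ± 1.41 FPKM (SD, n = 3 each), a ratio of 1.75. The log2 fold change was 0.68 (SE 0.28, 95% interval 0.0049 to 1.36), with an unadjusted p = 0.0488 and an adjusted p = 0.993 by limma, so it did not pass the test. The exact two-sided permutation test of the 6 values gave p = 0.1, the smallest that 3 against 3 allows, and p = 1 after adjustment over the 10 genes.

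Groups did not overlap in 3.53% of the 12495 genes tested, and were apart with the knockout higher in 1.45%, against 1 of 7 tested genes of the set. Within the libraries under 1% mitochondrial reads Eng was 7.54 FPKM in knockout 3 against a mean of 3.12 in wild type 1 and 2. In those over 1% it was a mean of 5.10 FPKM in knockout 1 and 2 against 3.88 in wild type 3. Knockout values above wild type within both sides were found in 6.86% of all genes tested, and in Eng and Nrp1 of the set. Knockout values below wild type within both sides were found in 9.19% of all genes, and in Vegfa and Kdr. With the side as a second term the log2 fold change of Eng was 0.71 (unadjusted p = 0.0246, adjusted p = 0.9998 by limma), and without wild type 2 it was 0.44 (adjusted p = 1). Fpgs, on the opposite strand, shares 61 nt with Eng exons, and the library kit does not mark strand. Fpgs stood at 4.78 to 7.70 FPKM and was lowest in knockout 2.

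Stromal markers were measured beside Eng. All 7 tested stroma and fibroblast markers had positive log2 fold changes, with a median of 0.50, and their summed level was 22.1 to 34.9 FPKM in wild type 1 to 3 and 32.6 to 57.7 FPKM in knockout 1 to 3. None of the 7 is listed at 0. The sum also moved with the libraries that stood apart, at 34.9 to 57.7 FPKM over 1% mitochondrial reads, where 2 of the 3 knockout libraries lie, and 22.1 to 32.6 FPKM under it. Of the 7 markers 6 were higher over 1% without overlap, a direction found in 31.4% of all tested genes. Col1a2, a fibrillar collagen chain, did not overlap either, at 5.31 ± 0.829 against 7.92 ± 1.21 FPKM (SD, n = 3 each, adjusted p = 0.993 by limma). Groups were apart with the knockout higher in 1.45% of all tested genes. The stroma sum was highest in knockout 1, at 57.7 FPKM, whereas Eng was highest in knockout 3, where that sum was 32.6 FPKM. The part of stromal cells in the Eng values was not tested.

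Pecam1, an adhesion protein of endothelial junctions (ENSMUSG00000020717, chromosome 11, 106654217 to 106750628, minus strand, 6228 nt), varied least of the tested genes of the set. It stood at 1.21, 1.01 and 1.41 FPKM in wild type 1 to 3 and at 1.63, 1.58 and 1.05 FPKM in knockout 1 to 3, a highest to lowest ratio of 1.62. Means were 1.21 ± 0.199 and 1.42 ± 0.320 FPKM (SD, n = 3 each), with a log2 fold change of 0.13 (SE 0.20, adjusted p = 0.993 by limma). The log2 fold change of Pecam1 ran from 0.062 (without wild type 2) to 0.24 (without knockout 3) with 1 library left out, was 0.039 with the mitochondrial side as a term, and was 0.31 without wild type 3 and knockout 3, called in none.

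Cdh5, the cadherin of endothelial junctions (ENSMUSG00000031871, chromosome 8, 104101625 to 104144511, plus strand, 4203 nt), varied most of the tested genes. It stood at 1.51, 1.70 and 7.22 FPKM in wild type 1 to 3 and at 6.30, 9.06 and 1.67 FPKM in knockout 1 to 3. The libraries split into a low set of 1.51 to 1.70 FPKM and a high set of 6.30 to 9.06 FPKM, and each label had libraries in both. The spread within labels, with means of 3.48 ± 3.24 and 5.67 ± 3.73 FPKM (SD, n = 3 each), exceeded the difference between them (log2 fold change 0.61, SE 0.64, adjusted p = 0.993 by limma). In the low set Cdh5 was 1.24 to 1.69 times Pecam1, and in the high set 3.86 to 5.73 times. Both genes are used as endothelial markers, and 94 to 696 reads lay behind each Cdh5 value. Gm29682, an antisense gene, overlaps the Cdh5 locus in an intron and shares no exon with it.

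Between the labelled groups, 0 of the 7 tested genes of the set passed limma's test, where 0% of all 12495 genes did. At an unadjusted p under 0.05, limma had 91 genes (0.728% of those tested) and limma-voom on the recovered reads had 75. Eng was the 1 gene of the set at an unadjusted p under 0.05 by limma, and none of the 7 was by limma-voom. Leaving out wild type 3 and knockout 3 together brought Angpt2 (1.22, adjusted p = 0.0187 by limma) and Cdh5 (1.72, adjusted p = 0.0175) past the threshold, in a fit that called 27.8% of all genes and set 2 libraries under 1% mitochondrial reads against 2 over it. With 1 library left out, the log2 fold change ran from 0.21 to 0.87 for Angpt2 and from 0.21 to 1.17 for Cdh5, and neither was called. Flt1, Angpt1 and Tek did not reach 1 FPKM in any library and so were not among the genes tested. In a fit with no filter their log2 fold changes were 0.02, 0.00098 and 0.06, with adjusted p = 0.962, 0.998 and 0.958 by limma. Of the 7 tested genes 6 had a positive log2 fold change, with a median of 0.15. Over all genes 45% were positive, with a median of -0.04. With library totals all 7 were positive, with a median of 0.21, but the median over all genes also rose, to 0.036. Over all genes, the median half-width of the 95% interval was 0.73 in log2 units.

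**Figure D2:**
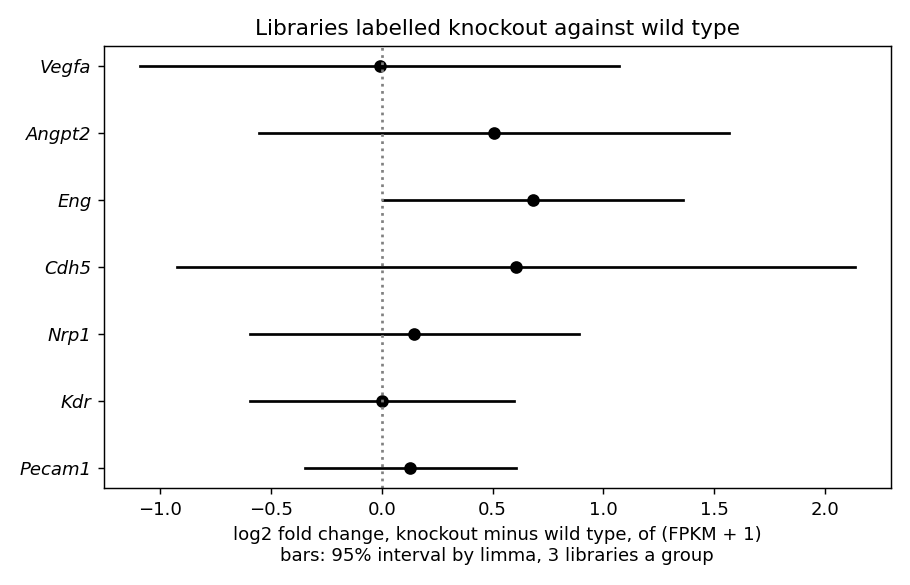
Log2 fold change of (FPKM + 1), knockout minus wild type as labelled, for the 7 genes over 1 FPKM, with limma's 95% interval from 3 libraries a group. The interval of Eng runs from 0.0049 to 1.36 and those of the other 6 genes include 0, with the widest for Cdh5.

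Vegfa, Angpt2, Kdr, Pecam1 and Cdh5 were each higher in all 3 libraries over 1% mitochondrial reads than in any of the 3 under 1%. The ratio of the mean levels was 4.63 for Cdh5 (7.52 ± 1.41 against 1.63 ± 0.105 FPKM, SD, n = 3 each), 2.61 for Angpt2, 1.95 for Vegfa, 1.61 for Kdr and 1.41 for Pecam1. Eng had a ratio of 1.02 and Nrp1 of 0.617, both with overlapping ranges. Such a separation is common in these libraries: 66.4% of all tested genes did not overlap between the sides, beside 71.4% of the tested genes of the set. It was upward in 31.4% of all genes and downward in 34.9%, and upward in 5 and downward in 0 of the 7. These sides were drawn from the data, are no groups of the study and were given no test. Gene length also moved with the sides, since the slope of log2 level on log2 gene length was -0.13, -0.08 and -0.12 in wild type 1, wild type 2 and knockout 3 and 0.11, 0.04 and 0.19 in wild type 3, knockout 1 and knockout 2. The tested genes of the set had a median exon length of 4285 nt, beside 3639 nt for all genes tested. What part length or RNA quality had in these values was not tested.

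**Figure D3:**
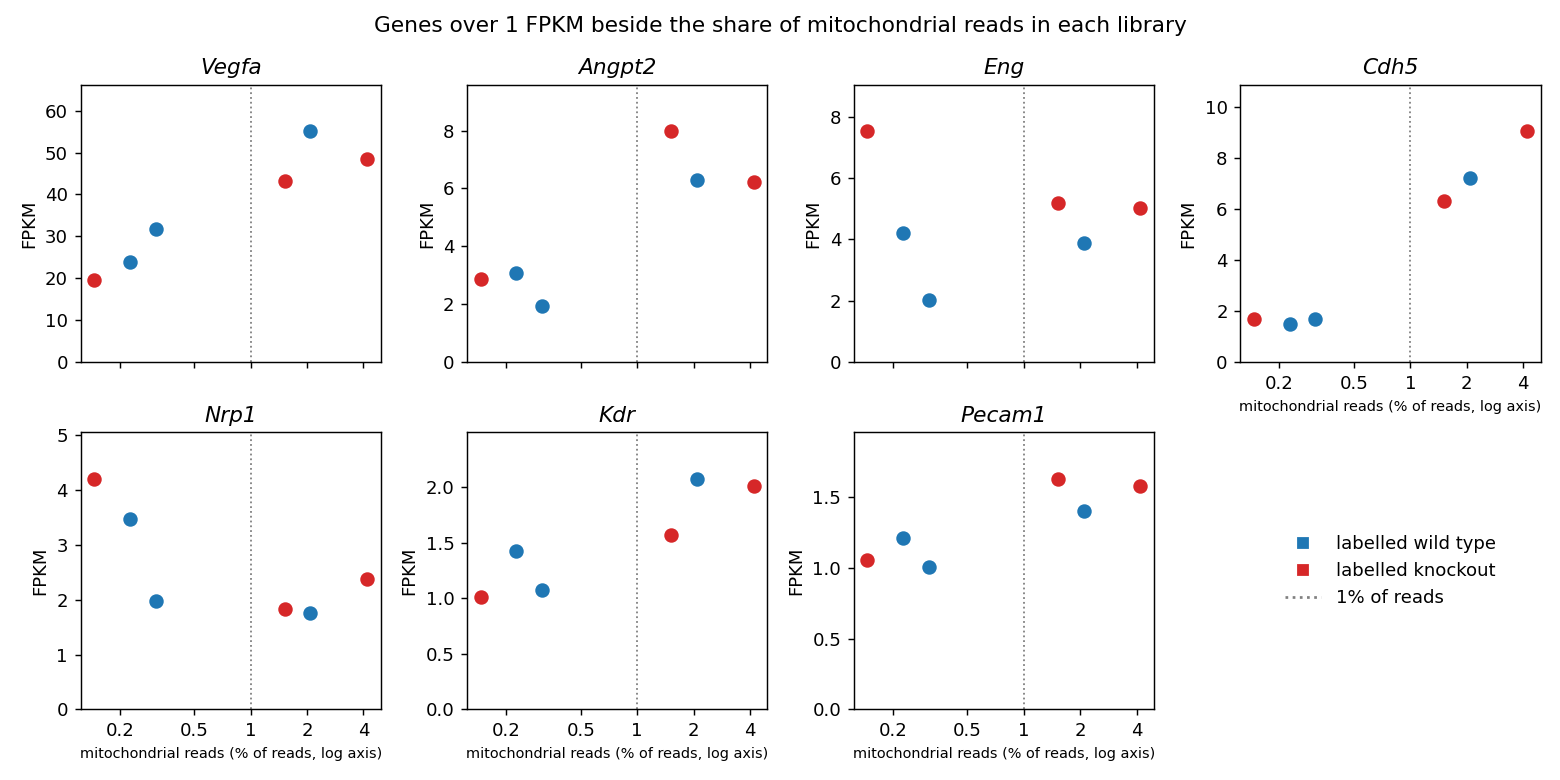
FPKM of the 7 tested genes (y axes from 0) against the percent of reads from the mitochondrial chromosome (log axis), 1 point per library, coloured by label, with a dotted line at 1%. Cdh5 lies at 1.51 to 1.70 FPKM in the 3 libraries left of the line and at 6.30 to 9.06 FPKM right of it, and Nrp1 is highest at the far left.

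Other endothelial markers ran both with and against Cdh5. Of 24 present, 12 were tested and 0 were called. Between the labels 4 had positive and 8 negative log2 fold changes, with a median of -0.06. Scaled to library totals, 7 were positive and 5 negative, with a median of 0.0046. The median over all genes also rose with that scaling, to 0.036. In the libraries over 1% mitochondrial reads 5 of the 12 were lower without overlap, where 34.9% of all tested genes were, and 1, Sox18, was higher, where 31.4% of all were. Cldn5, a tight junction protein, stood at 10.3, 4.98 and 3.43 FPKM in wild type 1 to 3 and at 4.73, 1.74 and 11.5 FPKM in knockout 1 to 3. Its order over the libraries was thus close to the reverse of that of Cdh5, and the ratio of its means between the sides was 0.369. Egfl7, a secreted endothelial protein, had a ratio of 0.359 and Icam2, an adhesion protein, of 0.437, whereas Sox18, a transcription factor of vessels, had 2.21. Exon length was 1414 nt for Cldn5, 3581 nt for Egfl7 and 1904 nt for Icam2. Rasip1 and Cd34, also lower over 1% without overlap, had 3202 nt and 7290 nt. Sox18 had 1620 nt and Cdh5 4203 nt. The part of length in these ratios was not tested.

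**Figure D4:**
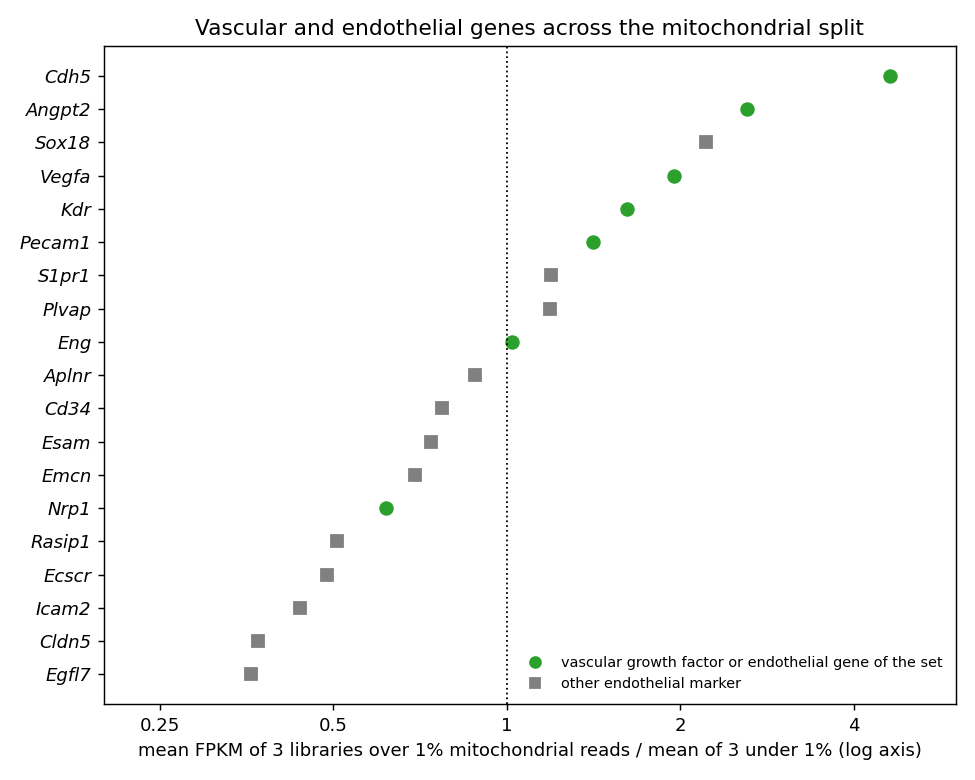
Ratio of mean FPKM in the 3 libraries over 1% mitochondrial reads to that in the 3 under 1% (log axis), for the 7 tested genes of the set (green circles) and 12 other tested endothelial markers (grey squares). Ratios run from 0.359 for Egfl7 to 4.63 for Cdh5, with Eng at 1.02.

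Levels of the endothelial markers differed widely. Of the 24 markers 14 had a median under 1 FPKM and none was listed at 0 throughout, with Vwf at 0.0170 to 0.151 FPKM and Erg at 0.155 to 0.432 FPKM. The other 10 had higher medians, among them Sox18 at 3.49 to 14.1 FPKM (median 7.69) and Egfl7 at 2.29 to 9.34 FPKM. The summed level of all 24 was 83.1 to 117 FPKM in wild type 1 to 3 and 88.7 to 115 FPKM in knockout 1 to 3. Cd34 alone made 52.8 to 75.6 FPKM of it. Plvap, a protein of fenestrated vessels, stood at 1.64 ± 0.366 and 2.39 ± 0.520 FPKM (SD, n = 3 each, adjusted p = 0.993 by limma). Lyve1, a hyaluronan receptor of lymphatic vessels and some macrophages, split like Cdh5, at 6.05, 9.47 and 46.3 FPKM in wild type 1 to 3 and 32.0, 62.6 and 10.1 FPKM in knockout 1 to 3. Of the other lymphatic markers, Prox1 stayed at or below 0.372 FPKM but also split this way, with a ratio of means between the sides of 4.40. A split upward over 1% mitochondrial reads was found in 31.4% of all tested genes. Pdpn was listed at 0 in all libraries, whereas Reln, a secreted glycoprotein, stood at 1.02 to 3.30 FPKM. Ccl21a, a chemokine with near-identical copies that could share its reads, stood at 0.670 to 5.00 FPKM, and another entry of that name at or below 0.0527 FPKM. Reln and Ccl21a overlapped between the labels and between the sides. Pericyte and smooth muscle markers had 5 positive and 1 negative of 6 tested, with Pdgfrb at 1.85 ± 0.447 and 2.50 ± 0.189 FPKM and Mcam at 4.54 ± 1.83 and 7.47 ± 2.41 FPKM, neither called. The groups of Pdgfrb did not overlap, as in 1.45% of all tested genes with the knockout higher. Leukocyte markers summed to 31.8 to 50.3 FPKM in wild type 1 to 3 and 32.4 to 45.5 FPKM in knockout 1 to 3. Of 6 theca markers 3 were positive and 3 negative between the labels, and of 10 granulosa markers 3 and 7. Of 7 oocyte markers 1 was positive and 6 negative, and of 5 erythroid markers 0 and 5, with 0 called. The positive theca markers were Cyp17a1, Ptch1 and Insl3. The negative ones were Star at 445 to 827 FPKM, Lhcgr at 41.0 to 87.6 FPKM and Hsd3b1 at 1112 to 1631 FPKM. Which cells gave the reads of these 6 genes was not tested. Haemoglobin reads were 0.308%, 0.203% and 0.0525% in wild type 1 to 3 and 0.0649%, 0.0403% and 0.246% in knockout 1 to 3. They were thus high in the libraries under 1% mitochondrial reads, where Cdh5 was low. All 5 erythroid markers were lower over 1% without overlap, where 34.9% of all tested genes were. Whether cells other than granulosa cells gave the Cdh5, Kdr or Pecam1 reads was not tested.

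The remaining genes of the VEGF and angiopoietin pathway gave 0 calls. Vegfb, a ligand of FLT1, was the next most abundant VEGF gene after Vegfa, at 19.8 ± 2.93 FPKM (wild type) and 19.1 ± 3.34 FPKM (knockout; SD, n = 3 each). Vegfc, the lymphatic ligand, stood at 2.64 ± 0.759 and 2.48 ± 0.567 FPKM. Vegfd and Pgf were not over 1 FPKM in 3 libraries and so were not tested. The low Vegfd values were 0.811, 0.639 and 0.552 FPKM in wild type 1 to 3 and 1.84, 0.954 and 1.56 FPKM in knockout 1 to 3. These groups did not overlap, with the knockout higher, as in 1.45% of all tested genes. Among the other receptors 3 of 6 were tested and 0 called, with Tie1, the orphan partner of TEK, at 0.846 ± 0.364 and 1.151 ± 0.224 FPKM. Itgb1, an integrin chain, stood at 132 ± 19.95 and 146 ± 44.0 FPKM. All 5 angiopoietin-like and other Angpt genes were tested, with 5 positive and 0 called. Angpt4 stood at 2.43 ± 0.734 and 3.62 ± 1.60 FPKM and Angptl2 at 3.14 ± 0.697 and 4.13 ± 1.32 FPKM.

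Oxygen sensing and HIF genes did not share a direction, with 5 positive and 3 negative of 8 tested and 0 called. Egln3, a prolyl hydroxylase that marks HIF subunits for decay, stood at 13.8, 18.8 and 22.8 FPKM in wild type 1 to 3 and 10.02, 12.9 and 9.98 FPKM in knockout 1 to 3. Its groups did not overlap, with the knockout lower, as in 2.08% of all tested genes. The log2 fold change of Egln3, -0.69 (unadjusted p = 0.0312, adjusted p = 0.993 by limma), did not pass the test. Epas1, a HIF alpha subunit prominent in endothelium, stood at 16.1, 21.6 and 50.1 FPKM in wild type 1 to 3. In knockout 1 to 3 it stood at 36.7, 63.6 and 23.1 FPKM. Epas1 was high in the same 3 libraries as Vegfa, those over 1% mitochondrial reads. Of the 8 tested genes 3 were higher there without overlap, where 31.4% of all tested genes were. Another 2 of the 8 were lower without overlap, where 34.9% of all were. Of 11 tested HIF target genes 3 were positive and 8 negative, with a median of -0.25. The glucose transporter Slc2a1 had means of 51.8 ± 3.21 and 38.2 ± 7.06 FPKM without overlap, with the knockout lower as in that 2.08% of genes. Ddit4, a stress-induced inhibitor of mTOR, had means of 135 ± 83.0 and 76.0 ± 14.1 FPKM with overlap. Neither passed the test. Between the mitochondrial sides, 1 of these 11 genes was higher over 1% without overlap, where 31.4% of all tested genes were. Lower without overlap were 4 of the 11, where 34.9% of all were. The higher one was Bnip3, a mitophagy receptor, with a ratio of means of 1.62, beside 1.95 for Vegfa, and among the lower ones was the glycolytic enzyme Ldha, at 165 to 246 FPKM against 379 to 394 FPKM. Other angiogenic ligands gave 5 positive and 4 negative of 9 tested and 0 called, with Edn1 at 1.54 ± 0.627 and 2.38 ± 1.02 FPKM and Ctgf at 91.4 ± 20.4 and 65.0 ± 14.8 FPKM.

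Genes with the nearest profile over the 6 libraries were named by the root mean square difference of mean-centred log2(FPKM + 1). For Vegfa they were Tada1 (0.059) and Trp53 (0.061), for Kdr Slc38a4 (0.047) and Nhlrc3 (0.053), and for Pecam1 Cstf3 (0.031) and Rnf128 (0.033). The values of Vegfa itself spanned 1.45 on that scale, those of Kdr 0.62 and those of Pecam1 0.39. Eng had no gene as near, its closest named one being the processed pseudogene Gm14038 (0.17, where Eng spanned 1.49), whose reads may be shared with other copies. These distances are over 6 libraries only and share the main difference between them.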

How the data were processed

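RNA of granulosa cells was measured in 6 libraries made from 1 ug of total RNA with a kit that does not mark strand, per the labels' protocols. For each library the authors deposited a gene table in FPKM, per the file headers. The submitters' processing notes list HISAT2 2.0.5 and mm10; how reads were counted, annotated and scaled is not given in the sources used here. Multiplying the deposited FPKM by gene length and by a library total, recovered from the spacing of these products, gave whole reads (tolerance 0.01) for 100% of values; the recovered totals were 0.894 to 1.12 times the summed reads.

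Groups came from the sample titles. The members, gene lists, alternatives and tests were chosen with earlier results of these data known. limma 3.58.1 in R 4.3.3 was fitted to log2(FPKM + 1) with its intensity-trend option and a single genotype term, over genes above 1 FPKM in at least 3 libraries, with two-sided p-values adjusted by Benjamini-Hochberg and a threshold of 0.05. Fold changes on this scale understate those of low genes. The test was also run on simulated counts, which did not carry the split between libraries, and no result here rests on that run. A chi-square over genes with 20 or more reads separated every pair of same-labelled libraries, so each was counted once. Named were all 10 members, the 2 genes of each list with the smallest p (0 being called), and the nearest profiles. Other genes were chosen after their values were seen. Gene positions were the same in GENCODE M21 for all members. Intervals on reads are exact at 95%. Alternatives were another pseudocount and other filters, library totals, limma-voom, the replicate block, 3 covariates and leaving out libraries. Figures were drawn with matplotlib 3.10.9.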

Additional observations from a re-analysis of the deposited data

How the results depend on the processing

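Across the alternatives run, limma called 0 genes and 0 of the set with a pseudocount of 0.1 FPKM, no filter, a filter on mean FPKM over 1, library totals, limma-voom, the replicate block and each library left out in turn (0 to 0). It called 1 gene, Mir1291, with the mitochondrial side as a term, with the length slope and with the log2 mitochondrial share (1 each). Leaving out wild type 3 and knockout 3 together gave 3213 called of 11563 genes (1243 higher, 1970 lower, 27.8%), 2 of them in the set, Angpt2 (1.22, adjusted p = 0.0187) and Cdh5 (1.72, adjusted p = 0.0175). That choice leaves 2 wild-type libraries under 1% mitochondrial reads against 2 knockout libraries over it, so label and side cannot be told apart in it. With the side as a term in all 6 libraries, Angpt2 was 0.15 and Cdh5 0.05.

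Signs turned only where a gene was not called; the cause was not tested. Vegfa, -0.01, was 0.076 with library totals, -0.37 with the side, -0.32 with the length slope, -0.27 with the log2 share, 0.71 without that pair and -0.27 to 0.39 with 1 library left out. Kdr, 0.0018, was -0.0018 with limma-voom, -0.15 with the side, -0.14 with the length slope, -0.11 with the log2 share and -0.13 to 0.16 with 1 library left out. Nrp1 was -0.24 without that pair and -0.10 to 0.36 with 1 left out. Eng kept its sign in all 16 alternatives, at 0.44 to 0.85, with adjusted p from 0.128 to 1. Its lowest value came without wild type 2, and there it fell from 0.68 by more than 1.5 times. With the replicate block, 27 genes had an unadjusted p under 0.05 against 91, and 0 of the set. Deviations of same-numbered libraries correlated at -0.42, -0.67 and -0.89 and 0 of 6 matched their own number best, so the labels' numbers gave no sign of pairing. Depth limits Angpt1 (2 to 20 reads per library), Tek (6 to 35) and Flt1 (40 to 73).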

Other observations

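Genes that restrain vessel growth were measured beside the ligands. Of 8 such genes 5 were tested, 4 were positive and 1 negative between the labels, and 0 were called. Adamts1, a matrix protease, stood at 33.8, 60.9 and 147 FPKM in wild type 1 to 3 and at 138, 210 and 47.8 FPKM in knockout 1 to 3. Thbs1, an antiangiogenic matrix protein, stood at 46.0, 50.9 and 169 FPKM and at 108, 208 and 46.2 FPKM. Both were high in wild type 3, knockout 1 and knockout 2, the 3 libraries in which Vegfa, Angpt2 and Cdh5 were also high. These are the libraries over 1% mitochondrial reads. Of the 5 tested genes 3 were higher there without overlap, where 31.4% of all tested genes were. Col18a1, the collagen that gives rise to endostatin, stood at 22.2, 22.5 and 22.4 FPKM in wild type 1 to 3 and at 21.1, 16.6 and 18.2 FPKM in knockout 1 to 3. Its groups did not overlap, with the knockout lower, as in 2.08% of all tested genes, and its log2 fold change of -0.26 did not pass limma's test (adjusted p = 0.993). Thbs1 was chosen after its values were seen.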
